A study of Homo sapiens with 3 samples.

Results

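Circular RNAs (circRNAs) from zinc-finger genes were described in 3 human cell lines, with 1 library each. HPDE is a non-tumour line of pancreatic duct epithelium, kept without serum, in a keratinocyte medium to which EGF and an extract of bovine pituitary were added. The other lines, PANC-1 and SW1990, are lines of pancreatic ductal adenocarcinoma, the common cancer of the pancreas, and their medium was DMEM with fetal bovine serum. No line was treated or edited, and no library had a replicate, so the line and its medium cannot be told apart. The hosts were the 43 genes, of 2418 named in the SW1990 table, whose symbol begins with ZNF, ZFP, ZSCAN, ZKSCAN, ZBTB or KLF, leaving out ZNF609 and ZKSCAN1. A junction of HPDE or PANC-1 was given to a host when it shared a start or an end with one of the host's SW1990 junctions, or lay inside the interval that those junctions cover. This gave HPDE 16 junctions with 217 reads, PANC-1 50 junctions with 1256 reads and SW1990 52 junctions with 596 reads. By symbol, 33 hosts were ZNF, 6 ZBTB, 3 KLF and 1 (ZKSCAN5) a SCAN member, and no ZFP gene was found.

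A circRNA forms when the end of a downstream exon is spliced back to the start of an upstream exon, and it is counted by reads across that back-splice junction. C2H2 zinc fingers are short folds in which cysteines and histidines hold a zinc ion, and a row of them lets a transcription factor read a DNA sequence. Many of these genes also code for a KRAB domain, which recruits the corepressor TRIM28, or a BTB domain, which pairs subunits and binds corepressors. In KRAB zinc-finger genes the KRAB box is coded by short exons near the start of the gene, and the row of fingers usually by one long last exon. KLF factors bind GC-rich promoter boxes. Not every member is a classical DNA-binding factor: ZBTB8OS codes for archease, a helper of tRNA ligation, ZNFX1 for an RNA helicase of antiviral defence, and ZNF638 for an RNA-binding protein that also silences unintegrated viral DNA.

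The 3 tables list 3370 circRNAs for HPDE, 13341 for PANC-1 and 3764 for SW1990, with 1408352, 1885511 and 1273083 back-splice reads in that order. Levels are the authors' RPM (reads for each M reads that the authors counted in a library), summed per host over its junctions. One HPDE read was worth 0.024 RPM, one PANC-1 read 0.0273 RPM and one SW1990 read 0.0208 RPM. A library with 0 reads of a host was given the limit of 3 reads, which is 0.0719, 0.0818 and 0.0623 RPM in that order, so folds against it are lower bounds. Intervals are exact 95% intervals and cover counting error only. Hosts were named from SW1990 alone, so a 0 elsewhere means no junction touching the SW1990 interval, and folds of SW1990 over another line are biased upward. In bulk RNA, fewer cells with a circRNA and less of it per cell cannot be told apart. Of 19 marker genes listed for epithelial, mesenchymal, basal and immune cells, 6 were circRNA hosts here, and linear RNA was not measured. The epithelial markers KRT7, CDH1 and ESRP1 had 520, 43 and 41 reads in SW1990 and 0 in both other lines, and GRHL2 and EPCAM had 90 and 38 in SW1990, 7 each in HPDE and 0 in PANC-1. The mesenchymal marker ZEB1 had 36 reads in SW1990, 16 in PANC-1 and 0 in HPDE. The part of cell identity in the host levels was not tested.

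Most of these circRNAs are built from the same place in the gene: exons after the first, often beginning with exon 2. With no genome of the hg19 build at hand, a junction was tied to exons by its length, matching its span to the distance between exon ends of its host in GENCODE release 29. This matched 3006 of 3491 SW1990 junctions (86.1%), against 2.29 to 3.12% when the span was shifted by 1 or more bases. Of the 77 distinct junctions of the zinc-finger hosts, 61 matched, from 35 of the 43 hosts. None of the 61 holds the first or the last exon of its transcript, an exon choice also rare among all SW1990 junctions (11 and 10 of 3006). Among SW1990 junctions, 21 of 41 from the zinc-finger hosts begin at exon 2 (51.2%), against 702 of 3006 over all hosts (23.4%). The sets were not matched for exons per transcript, which limit where a circle can begin, and the difference was not tested. The matched circles hold a median of 2 exons and at most 7, with a median length of 331 bases (175 to 2090). Of the 61, 37 are coding sequence throughout and 23 hold the start codon.

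Most matched circles from KRAB zinc-finger genes code for the KRAB part, and none for a complete finger. A KRAB-like motif was found in the proteins of 19 hosts, and 16 of these had matched junctions, 22 in all. In 16 of the 22 junctions, from 14 hosts, the circular exons code for the KRAB-like motif, and in 0 of the 22 do they code for a complete C2H2 finger. Hosts with fingers but no KRAB-like motif differ in this: 14 of their 29 matched junctions, from 8 of 16 hosts, hold at least 1 finger. The groups rest on a short sequence pattern, which can miss a KRAB domain. ZKSCAN5, a KRAB and SCAN gene by its symbol, lacks the motif and is counted among these 16, with 0 fingers in its circle. The circles of the KRAB hosts are also shorter, with a median of 252 bases against 537. Fingers were found in 39 of the 43 host proteins. Over all 43, with the other 4 counted as 0, the median is 8 fingers and the most is 25, in ZNF268. No matched circle holds the last exon, where the row of fingers of a KRAB gene usually lies, so a count at or near 0 was given in advance. The selection rule used symbols alone and no exon, and these counts are a description with no test.

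**Figure D1:**
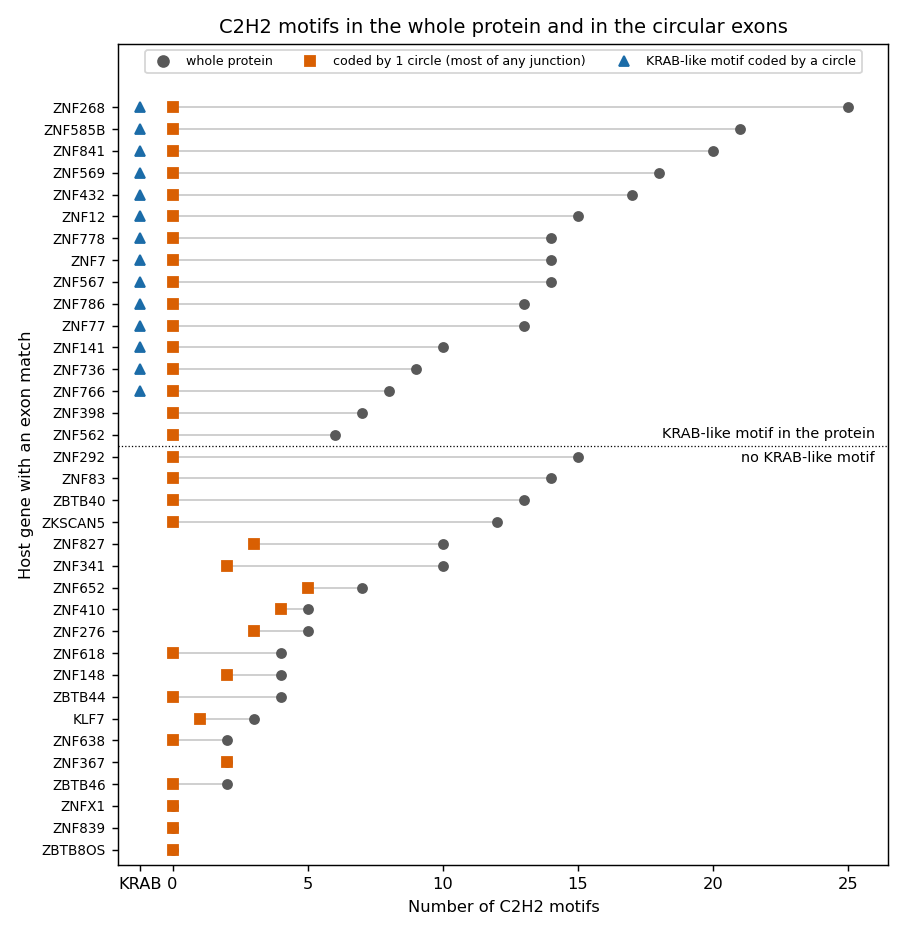
C2H2 finger motifs in the whole protein (grey circles) and the most coded by any 1 circle (orange squares) for the 35 hosts with an exon match; blue triangles mark hosts with a circle that codes for a KRAB-like motif. The 16 hosts above the dotted line have a KRAB-like motif in the protein, and all 16 squares there sit at 0.

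The junction sequences show what the KRAB circles share. Each line gives the last 30 bases of the downstream exon in lower case and then, in capitals, the first 30 bases of the upstream exon, where the KRAB coding exon begins. They are read on the gene's strand from GENCODE release 29 transcripts, and the positions are those of the files in hg19. Shown are the hosts whose KRAB-coding junction was identical in all 3 lines, and ZNF141, which had 0 reads in PANC-1.
ZNF77: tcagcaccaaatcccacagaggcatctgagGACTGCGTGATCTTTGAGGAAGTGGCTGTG
ZNF786: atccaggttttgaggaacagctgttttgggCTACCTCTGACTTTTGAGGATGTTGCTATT
ZNF841: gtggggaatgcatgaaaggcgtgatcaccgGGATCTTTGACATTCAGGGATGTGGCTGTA
ZNF141: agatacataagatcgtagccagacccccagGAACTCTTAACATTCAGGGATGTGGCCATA
The lines stand for ZNF77 at chr19:2936522-2939405 (minus strand), ZNF786 at chr7:148771478-148777809 (minus), ZNF841 at chr19:52579297-52580337 (minus) and ZNF141 at chr4:337571-338219 (plus). All 4 begin at exon 2 of their transcript and end with exon 3. The capital sides of ZNF141 and ZNF841 are identical at 23 of 30 bases, and those of ZNF77 and ZNF786 at 17. Over the 11 KRAB circles whose sides are coding throughout, the 55 pairs share a median of 19 of 30 bases (15 to 27). Near-identical copies elsewhere could draw reads: 29.3% of the 50-base words of the ZNF141 circle also occur in ZNF732, and 9 circles of 4 hosts (ZBTB8OS, ZNF141, ZNF585B and ZNF736) pass 10%.

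These KRAB circles were low in every line. ZNF77 was at 0.144 RPM (6 reads) in HPDE, 0.491 RPM (18 reads) in PANC-1 and 0.125 RPM (6 reads) in SW1990. ZNF841 was at 0.144 RPM (6 reads), 0.409 RPM (15 reads) and 0.166 RPM (8 reads) in the same order. PANC-1 was the highest line for both, 3.41-fold over HPDE for ZNF77 (1.3 to 10.5) and 2.84-fold for ZNF841 (1.04 to 8.94), a call that is lost, at a log2 fold of 0.90, when libraries are scaled by total back-splice reads. The log2 fold of SW1990 over PANC-1 for ZNF841 is then -0.34, and it is 0.07 on reads outside the RNase P, ribosomal RNA and mitochondrial loci, so its order between those lines depends on the scaling. ZNF786 was at 0.0959 RPM (4 reads), 0.164 RPM (6 reads) and 0.187 RPM (9 reads), and its intervals overlap in all 3 lines. By the authors' RPM its log2 fold of SW1990 was 0.96 over HPDE and 0.19 over PANC-1, both uncalled. On total back-splice reads these were 1.32 and 1.15, and on reads outside those loci 1.56 each, all called higher. ZNF141 was at 0.288 RPM (12 reads) in HPDE, 0 reads in PANC-1 and 0.0623 RPM (3 reads) in SW1990, where 2 more reads of the host came from a longer junction.

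Over all 43 hosts, PANC-1 carried the most zinc-finger circRNA by the authors' RPM. The summed level was 5.2 RPM (4.53 to 5.94) in HPDE, 34.3 RPM (32.4 to 36.2) in PANC-1 and 12.4 RPM (11.4 to 13.4) in SW1990. The size of this lead depends on the scaling. Reads outside the RNase P, ribosomal RNA and mitochondrial loci numbered 395608 in PANC-1 and 200920 in SW1990, against 1256 and 596 reads of these hosts. On that scaling SW1990 comes close to PANC-1. PANC-1 also listed the most circRNAs in all, 13341 against 3370 in HPDE and 3764 in SW1990. Levels were not summed over all hosts. HPDE had reads from 13 hosts, PANC-1 from 30 and SW1990, by construction, from all 43. In PANC-1 the leading 3 hosts (ZBTB46, ZNF292 and ZBTB44) took 55.7% of these reads (52.9 to 58.5%). In HPDE the leading 3 (ZNF83, ZNF148 and ZNF398) took 47.5% (40.7 to 54.3%), and in SW1990 the leading 3 (ZNF398, ZNF276 and ZNF83) 27.3% (23.8 to 31.1%). The order of the hosts thus differed between the lines, and ZNF398 and ZNF83 alone led in more than one of them. Of the 43, 11 had reads in all lines, 19 in PANC-1 and SW1990, 2 (ZNF83 and ZNF141) in HPDE and SW1990, and 11 in SW1990 alone. Over all 2418 named hosts, 925 had reads in HPDE, 1601 in PANC-1 and 828 in all lines. Chromosome 19, where many KRAB zinc-finger genes lie in clusters, held 12 of the 43 hosts (27.9%), against 149 of all 2418 named hosts (6.16%).

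**Figure D2:**
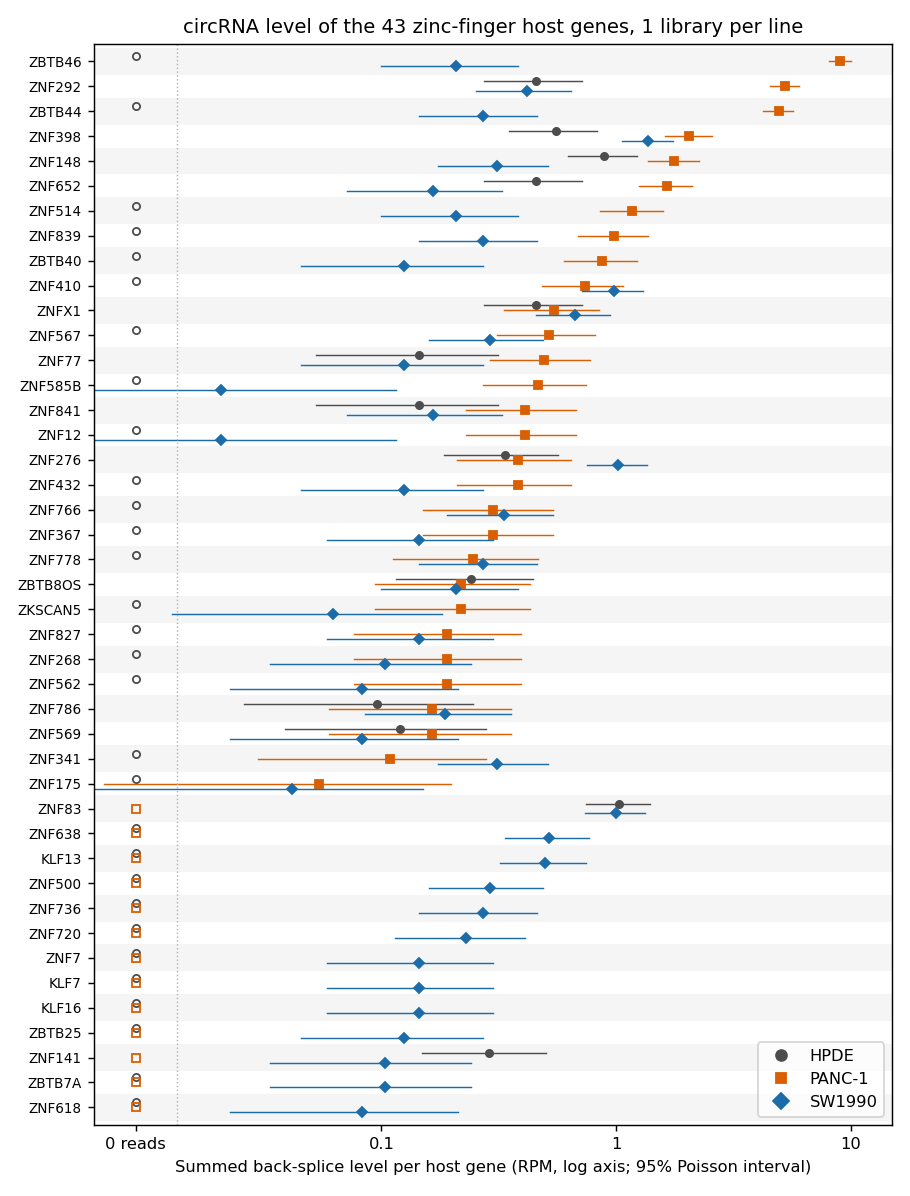
Summed back-splice level of each of the 43 hosts in RPM on a log axis, with 1 library per line; points are levels, bars 95% Poisson intervals, and open points at the left mark 0 reads. Bars that reach the left edge run on below it. ZBTB46, ZNF292 and ZBTB44 stand highest, at 4.91 to 8.97 RPM in PANC-1.

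For each pair of lines, a host with at least 10 reads over both counted as higher or lower where the levels differed 2-fold or more. In PANC-1 against HPDE, 17 of the 25 members compared were higher and 2 lower, and their log2 folds had a median of 2.06. Over all 1454 hosts compared, 64.7% were higher and 13.2% lower, with a median of 2.02, so the members' shares were near those of all hosts. An exact conditional binomial test on the reads, which compares libraries and not conditions, with an adjusted p under 0.05 and the same fold, called the same numbers of members (17 and 2) and 63.5% and 12.8% of all hosts. Of the 25, 12 had 0 reads in HPDE and 2 (ZNF83 and ZNF141) had 0 in PANC-1. All 12 were higher and the 2 lower, as the read minimum and the limit given to 0 reads make them. The test used the same fold, so its equal counts are no separate check on these hosts. Among the 11 with reads in both lines, 5 were higher, none lower and 6 within 2-fold. The median log2 fold over these 11 was 1.0, against 0.85 over the 819 such hosts in all.

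In SW1990 against HPDE, 16 of the 26 members compared were higher and 3 lower, and their log2 folds had a median of 1.56. Over all 1779 hosts, 61.0% were higher and 12.9% lower, with a median of 1.73. The test called 16 members higher and 2 lower, and 59.5% and 11.8% of all hosts. All 14 members with 0 reads in HPDE were higher, as the read minimum and the 3-read limit make them. Among the 12 with reads in both lines, 2 were higher (ZNF276 and ZNF398), 3 lower (ZNF148, ZNF141 and ZNF652) and 7 within 2-fold, and the median was -0.09. Scaled by the reads outside the RNase P, ribosomal RNA and mitochondrial loci, 0 of the 26 were lower, ZNF148 for example at a log2 fold of -0.91.

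In SW1990 against PANC-1, 8 of the 35 members compared were higher and 16 lower (45.7%), and their log2 folds had a median of -0.88. Over all 2017 hosts, 33.7% were higher and 34.1% lower, with a median of -0.17. The test called 7 members higher and 12 lower, and 31.7% and 31.5% of all hosts. All 6 members with 0 reads in PANC-1 were higher, as the read minimum and the limit given to 0 reads make them. Among the 29 with reads in both lines, 2 were higher, 16 lower and 11 within 2-fold. The median log2 fold over these 29 was -1.2, against -0.81 over the 1540 such hosts in all. In this comparison the scaling decides the sign of the median over all 35 members. With the total of back-splice reads in place of the authors' total, all log2 folds move by 0.96, the members' median becomes 0.08, that of all hosts 0.79, and the split over all hosts 936 higher and 370 lower. With the reads outside the loci just named the shift is 1.37, the medians are 0.49 and 1.2, and the split is 1081 and 266; by TMM and by median of ratios the members' median stays below 0, at -0.38 and -0.35, and that of all hosts is 0.32 and 0.35. A scaling moves all folds of a comparison by the same amount, so it cannot change the gap between the members' median and that of all hosts. That the members' median lies below under each scaling is therefore no separate support.

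**Figure D3:**
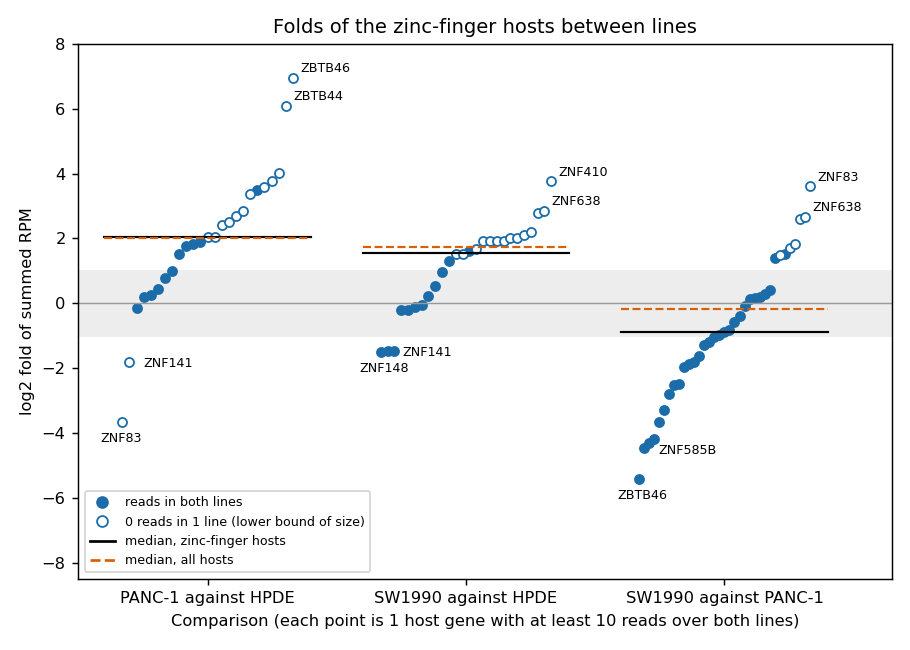
log2 fold of the summed RPM for each host compared, in 3 comparisons; open points are lower bounds against a line with 0 reads, the grey band marks folds under 2, and lines give the medians of the zinc-finger hosts (solid) and of all hosts (dashed). The medians nearly coincide in PANC-1 against HPDE (2.06 and 2.02) and stand apart in SW1990 against PANC-1 (-0.88 and -0.17).

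ZBTB46 and ZBTB44, both BTB factors, had the largest folds of PANC-1 over HPDE. ZBTB46, a marker of classical dendritic cells in blood and lymphoid tissue, had 0 HPDE reads, 329 in PANC-1 (8.97 RPM, 8.03 to 10.0) and 10 in SW1990 (0.208 RPM, 0.0996 to 0.382). PANC-1 was at least 125-fold higher than HPDE, and SW1990 was 43.2-fold lower than PANC-1 (23.2 to 90.9). Of the PANC-1 reads, 324 came from a junction of exons 2 to 3 at chr20:62407031-62422143, which no other line had. The other junction, of exon 3 alone at chr20:62407031-62407315, had 5 reads in PANC-1 and 10 in SW1990, so the host's difference rests on the circle that includes exon 2, which holds the start codon. Without that junction the SW1990 level was 0.61 above PANC-1 on the log2 scale, which is not a call. The ratio of 1.52 has an interval that includes 1 (0.474 to 5.68). The exon 3 circle joins to itself as follows, with the exon's end in lower case and its start in capitals.
ZBTB46 exon 3: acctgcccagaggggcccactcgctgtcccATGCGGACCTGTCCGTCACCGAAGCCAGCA

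ZBTB44, a little-studied BTB factor, was likewise highest in PANC-1, from a single junction. It had 0 reads in HPDE, 180 in PANC-1 (4.91 RPM, 4.22 to 5.68) and 13 in SW1990 (0.27 RPM, 0.144 to 0.462), all at chr11:130130751-130131824, the span of exon 2, of which 94.8% is coding. PANC-1 was at least 68.2-fold higher than HPDE, and SW1990 18.2-fold lower than PANC-1 (10.4 to 34.8). ZBTB40, known from genetic studies of bone density, had 0, 32 and 6 reads from 1 junction of exons 2 to 3, and SW1990 was 7.0-fold lower than PANC-1 (2.89 to 20.5). Neither circle codes for a finger, although the whole ZBTB40 protein has 13 and ZBTB44 has 4. ZBTB8OS had 10, 8 and 10 reads, within 2-fold in every comparison, but from 5 junctions of which no 2 lines shared any. ZBTB25 and ZBTB7A, the repressor of fetal globin genes, had 6 and 5 reads, in SW1990 only.

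ZNF292, a large zinc-finger factor whose circRNA is known from endothelial cells under low oxygen, had the largest fold of PANC-1 over HPDE among the members with reads in both. It was at 0.456 RPM (19 reads, 0.274 to 0.712) in HPDE, 5.21 RPM (191 reads, 4.5 to 6.0) in PANC-1 and 0.415 RPM (20 reads, 0.254 to 0.642) in SW1990. PANC-1 stood apart: it was 11.4-fold over HPDE (7.12 to 19.4) and SW1990 12.5-fold below it (7.89 to 21.0), while HPDE and SW1990 overlapped. The excess in PANC-1 was uneven over 3 junctions that share a start or an end. The junction of exons 2 to 4 had 7, 152 and 9 reads in HPDE, PANC-1 and SW1990, a PANC-1 level 24.7 times that of HPDE (11.7 to 62.5), and the junction with a start further upstream, at chr6:87920169-87928449, which matched no annotated exon pair, had 12, 29 and 5, or 2.75-fold more (1.36 to 5.91). The upstream start was the leading junction in HPDE and exon 2 in both other lines. The circle of exons 2 to 5 had 0, 10 and 6 reads. Both annotated circles begin with the same bases, in capitals, and differ in the exon joined to them.
ZNF292 exons 2 to 4: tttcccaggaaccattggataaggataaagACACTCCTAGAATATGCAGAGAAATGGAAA
ZNF292 exons 2 to 5: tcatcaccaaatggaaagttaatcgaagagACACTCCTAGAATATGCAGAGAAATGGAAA
They lie on the plus strand at chr6:87925621-87928449 and chr6:87925621-87943245.

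ZNF652, a DNA-binding repressor that works with the corepressor CBFA2T3, differed between the lines in its junctions. It was at 0.456 RPM (19 reads) in HPDE, 1.64 RPM (60 reads) in PANC-1 and 0.166 RPM (8 reads) in SW1990. PANC-1 thus lay 3.59-fold above HPDE (2.11 to 6.37), and SW1990 2.74-fold below HPDE (1.15 to 7.24). The SW1990 call is lost on reads outside the RNase P, ribosomal RNA and mitochondrial loci, at a log2 fold of -0.85. The circle of exons 3 to 5 had 13, 60 and 0 reads in HPDE, PANC-1 and SW1990, and the circle of exons 4 to 5 had 6, 0 and 8. HPDE had both, and each PDAC line had one. For the shorter circle alone, SW1990 and HPDE were at 0.166 and 0.144 RPM, a ratio of 1.15 (0.351 to 4.04), so the lower level of ZNF652 in SW1990 rests on the longer one. Both junctions share the downstream end and code for fingers, 5 in the longer and 3 in the shorter circle, of 7 in the protein.
ZNF652 exons 3 to 5: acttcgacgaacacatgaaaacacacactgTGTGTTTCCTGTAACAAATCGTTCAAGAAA
ZNF652 exons 4 to 5: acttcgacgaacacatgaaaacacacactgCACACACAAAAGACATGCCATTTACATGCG
They lie on the minus strand at chr17:47388674-47390207 and chr17:47388674-47389404. The lower-case sides are the same exon end, and the capitals show the exon that was joined to it.

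ZNF148, which binds GC-rich promoter elements, had the most isoforms, 7 junctions. Its level was 0.887 RPM (37 reads, 0.625 to 1.22) in HPDE, 1.77 RPM (65 reads, 1.37 to 2.26) in PANC-1 and 0.312 RPM (15 reads, 0.174 to 0.514) in SW1990. SW1990 was the lowest, 2.85-fold below HPDE (1.53 to 5.59) and 5.69-fold below PANC-1 (3.21 to 10.7), and the fold of PANC-1 over HPDE, 2.0 (1.31 to 3.08), fell just short of a call before rounding. The junction of exons 2 to 4 at chr3:125032152-125050082 led in all lines, with 27, 32 and 9 reads, with a ratio of PANC-1 to HPDE of 1.35 (0.782 to 2.34). The rest of the PANC-1 reads came from 4 junctions that HPDE lacked, and HPDE had a circle of exons 6 to 7, with 10 reads, that no other line had. That circle holds 2 of the protein's 4 fingers, and the leading one holds none.
ZNF148 exons 6 to 7: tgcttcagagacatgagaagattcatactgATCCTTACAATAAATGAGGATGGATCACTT
It lies at chr3:124996570-124998091 on the minus strand.

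ZNF398, a KRAB zinc-finger gene whose protein is known to bind the estrogen receptor, had 1 junction, shared by all lines. Its level was 0.552 RPM (23 reads, 0.35 to 0.828) in HPDE, 2.05 RPM (75 reads, 1.61 to 2.56) in PANC-1 and 1.37 RPM (66 reads, 1.06 to 1.74) in SW1990, all from the single exon 2 at chr7:148851037-148851432 on the plus strand. Both PDAC lines were above HPDE, 3.71-fold (2.3 to 6.2) and 2.49-fold (1.53 to 4.19), and SW1990 was 1.49-fold below PANC-1 (1.06 to 2.11). The order of SW1990 and PANC-1 depends on the scaling. Their log2 fold of -0.58 becomes 0.38 on total back-splice reads and 0.79 on reads outside the RNase P, ribosomal RNA and mitochondrial loci. The 396-base circle codes for neither a KRAB-like motif nor a finger. Its end joins to its own start.
ZNF398 exon 2: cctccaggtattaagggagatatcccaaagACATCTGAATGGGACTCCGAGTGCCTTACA

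ZNF83 showed the opposite pattern from the BTB hosts. Its level was 1.03 RPM (43 reads, 0.746 to 1.39) in HPDE and 0.997 RPM (48 reads, 0.735 to 1.32) in SW1990, and PANC-1 had 0 reads, with an exact upper limit of 0.101 RPM. HPDE and SW1990 shared 1 junction, at chr19:53158814-53164096, and their ratio was 0.967 (0.627 to 1.49). PANC-1 was at least 12.6-fold lower than HPDE, and SW1990 at least 12.2-fold higher than PANC-1. The exons matched, 2 and 3, hold 0 coding bases, so the circle comes wholly from the untranslated part of the transcript. ZNF141 was the other host with reads in HPDE and none in PANC-1, at least 3.52-fold lower there.

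Several hosts used different circles in PANC-1 and SW1990. ZNF410, an activator of the chromatin remodeller gene CHD4 in human red-cell precursors, had 0 reads in HPDE, 27 in PANC-1 (0.736 RPM) and 47 in SW1990 (0.976 RPM), a ratio of 1.33 (0.809 to 2.21). Scaled by total back-splice reads the log2 fold becomes 1.37, past the threshold, and by reads outside the RNase P, ribosomal RNA and mitochondrial loci 1.78. Of the PANC-1 reads 26 came from a circle of exons 2 to 8, which holds 4 of the protein's 5 fingers and which SW1990 lacked. SW1990 had 30 reads from exons 2 to 4, which hold no finger and had 1 read in PANC-1, and 17 from exons 5 to 6. ZNF839 had 0, 36 and 13 reads: all PANC-1 reads joined exons 2 to 7 and all SW1990 reads exons 6 to 7, with the same downstream end.
ZNF839 exons 2 to 7: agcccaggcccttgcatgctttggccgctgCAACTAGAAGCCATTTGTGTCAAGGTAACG
ZNF839 exons 6 to 7: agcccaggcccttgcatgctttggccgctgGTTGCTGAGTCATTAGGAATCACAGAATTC
They lie on the plus strand at chr14:102792322-102805560 and chr14:102805153-102805560. ZNF514 had 0, 43 and 10 reads, of which 41 in PANC-1 came from a junction that SW1990 lacked, and neither of its junctions matched an exon pair. For ZNF839 and ZNF514 the lower SW1990 level (3.64-fold, 1.88 to 7.47, and 5.65-fold, 2.79 to 12.6) therefore compares different circles. The ZNF839 call is lost on total back-splice reads (a log2 fold of -0.90) and on reads outside those loci (-0.49). The lines shared no ZNF839 junction, and the shared ZNF514 junction had 2 reads in PANC-1 and 10 in SW1990, a ratio of 3.81 (0.812 to 35.7).

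ZNF276, which overlaps the DNA repair gene FANCA on the other strand, had 14 reads in HPDE (0.336 RPM), 14 in PANC-1 (0.382 RPM) and 49 in SW1990 (1.02 RPM). SW1990 was 3.03-fold above HPDE (1.65 to 5.95) and 2.67-fold above PANC-1 (1.45 to 5.23). HPDE and PANC-1 had the circle of exons 8 to 10 at chr16:89799890-89804313, which had 0 reads in SW1990, and SW1990 had 39 reads from exons 4 to 10 and 10 from a junction with no exon match. The tables give no strand, and 12 of the 43 hosts are overlapped by a coding gene on the other strand, ZNFX1 among them (DDX27). ZNFX1 had 19, 20 and 32 reads, within 2-fold in every comparison. SW1990 passes the threshold over PANC-1 on total back-splice reads (a log2 fold of 1.24), and on reads outside the RNase P, ribosomal RNA and mitochondrial loci over both PANC-1 (1.66) and HPDE (1.15). Its circle of exons 4 to 5 at chr20:47881253-47882803 was in all lines, with 19, 7 and 32 reads, and was 3.48-fold higher in SW1990 than in PANC-1 (1.51 to 9.35). The other 13 PANC-1 reads came from longer circles.
ZNFX1 exons 4 to 5: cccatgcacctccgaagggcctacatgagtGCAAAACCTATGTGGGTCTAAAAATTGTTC

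**Figure D4:**
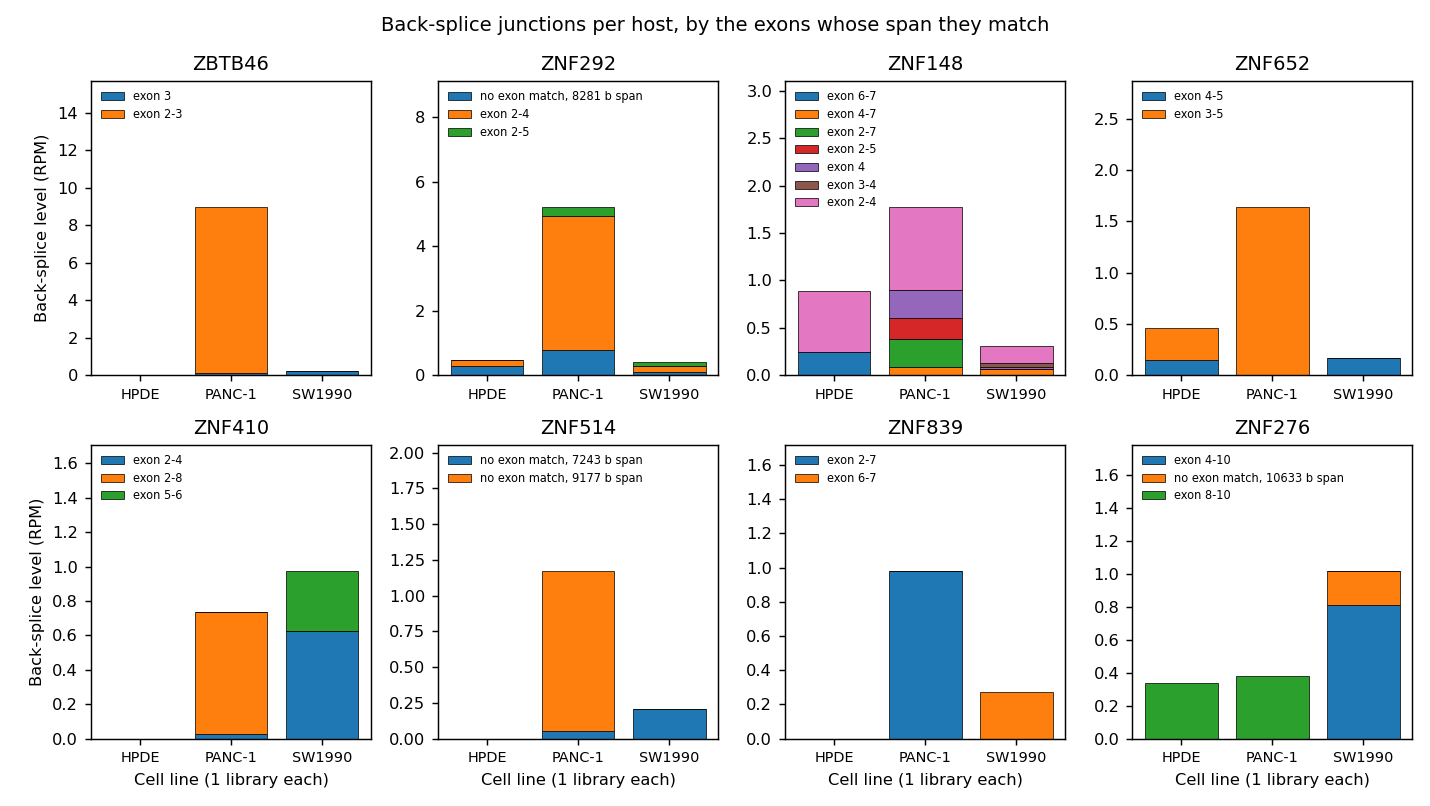
Back-splice level in RPM of each junction of 8 hosts, stacked by line, with 1 library per line; colours are junctions within a panel, named by the exons of the matched transcript, and vertical scales differ between panels. ZNF652, ZNF839 and ZNF276 show lines that share the host and not the leading circle.

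This change of circle was common. The 43 hosts had 77 distinct junctions, of which 8 were in all 3 lines, 25 in 2 lines and 44 in 1 line (21 in PANC-1, 21 in SW1990 and 2 in HPDE). Of the 30 hosts with reads in both PANC-1 and SW1990, 17 had more than 1 junction over these lines, and in 14 of the 17 the leading junction differed (82.4%). Over all hosts treated in the same way, it differed in 791 of 1192 (66.4%). Against HPDE it differed in 4 of 6 members for either PDAC line, against 67.2% over all hosts in PANC-1 and 65.2% in SW1990. Of the 52 SW1990 junctions of the members, HPDE also listed 23.1% (12.5 to 36.8%) and PANC-1 51.9% (37.6 to 66.0%), against 23.5% and 44.4% over all named hosts. Most of these junctions were shallow, with a median of 7.5 reads in SW1990, and a leading junction can change by counting error at that depth.

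Of the hosts found in SW1990 alone, the best covered were ZNF638 with 25 reads (0.519 RPM, 0.336 to 0.767) and KLF13, a factor of T-cell chemokine expression, with 24 reads (0.499 RPM, 0.319 to 0.742). SW1990 was at least 7.22-fold and 6.93-fold over HPDE for these, and at least 6.35-fold and 6.09-fold over PANC-1. The ZNF638 circle is the span of exon 2, with the start codon, and the KLF13 junction, 417 bases at chr15:31668088-31668504, matched no exon pair. ZNF500 had 14 reads in SW1990 alone. KLF7 and KLF16 had 7 reads each and were too low for any comparison, as were ZNF7, ZNF618, ZBTB25 and ZBTB7A with 4 to 7 reads and ZNF175 with 2 reads in each PDAC line.

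A few low hosts had folds that rest on single reads. ZNF585B had 17 reads in PANC-1 and 1 in SW1990, 22.3-fold lower (3.50 to 933), and ZNF12 had 15 and 1, 19.7-fold lower (3.03 to 829). ZNF567 had 19 and 14 reads from 1 junction, and ZNF766 11 and 16, both within 2-fold by the authors' RPM. ZNF766 passes the threshold in SW1990 over PANC-1 on total back-splice reads (a log2 fold of 1.11) and on identical junctions (1.02). It also does on reads outside the RNase P, ribosomal RNA and mitochondrial loci (1.52). The ZNF567 log2 fold turns from -0.83 to 0.13 on total back-splice reads and to 0.54 on reads outside those loci. ZNF341, an activator of the STAT3 gene, had 4 and 15 reads, 2.86-fold more in SW1990 with an interval that includes 1 (0.910 to 11.8). None of the 5 had reads in HPDE.

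Genes of cofactors that zinc-finger factors recruit, corepressors and coactivators alike, were hosts themselves. Of 40 cofactor genes listed, 18 were hosts, among them the corepressor NCOR1, the histone demethylase KDM1A and the acetyltransferases CREBBP and EP300, but not TRIM28 by the SW1990 names. Of those compared, 11 of 15 were higher in PANC-1 than in HPDE and 1 lower, 10 of 16 higher in SW1990 than in HPDE and 3 lower, and 4 of 17 higher in SW1990 than in PANC-1 and 8 lower. Over all hosts the shares higher and lower were 64.7% and 13.2%, 61.0% and 12.9%, and 33.7% and 34.1% in these comparisons. EP300 had 0, 36 and 40 reads in HPDE, PANC-1 and SW1990, at least 13.6-fold and 11.5-fold over HPDE, SIN3A 0, 26 and 6, and HDAC4 0, 17 and 22. CUL3, the ubiquitin ligase scaffold that BTB proteins bind, had 18, 47 and 5 reads, 12.3-fold lower in SW1990 than in PANC-1 (4.93 to 39.8). FAM208A, of the HUSH silencing complex, had 10, 13 and 2 reads, and the DNA methyltransferase DNMT3B 10, 0 and 26.

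Of 86 other C2H2 factor genes listed, 10 were hosts. In PANC-1 against HPDE 4 of 7 compared were higher and 1 lower, in SW1990 against HPDE 3 of 8 and 2, and in SW1990 against PANC-1 2 of 8 and 4, to be read against those same shares over all hosts. GLIS2, a GLI-like factor, had 67, 304 and 53 reads in HPDE, PANC-1 and SW1990, so PANC-1 was 5.16-fold above HPDE (3.95 to 6.83) and 7.53-fold above SW1990 (5.61 to 10.3). SP1, a general GC-box activator, had 0, 2 and 37 reads, 14.1-fold more in SW1990 than in PANC-1 (3.63 to 121). GLI2, an effector of Hedgehog signalling, had 0, 14 and 28 reads, and RREB1, a factor downstream of RAS, had 22, 36 and 9, 5.25-fold less in SW1990 than in PANC-1 (2.48 to 12.4). These folds and calls follow the same rule as for the zinc-finger hosts and share its bias from naming hosts in SW1990.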

How the data were processed

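Total RNA from HPDE, PANC-1 and SW1990, 1 library each, was extracted with TRIzol and made into libraries with a NEBNext Ultra RNA kit, per the labels' protocols. The genome build hg19 and the tools TopHat2, TopHat and HTSeq, without versions, are named in the submitters' processing notes. The sources used here do not give the circRNA caller, its filters or which reads the RPM total counts. Per the file headers, the deposited HPDE and PANC-1 tables hold RPM per junction, and the deposited SW1990 table holds the read count, the RPM and the host symbol. In every library 100% of RPM values were whole multiples of the value of 1 read within 0.05 reads, which gave totals of 41.7, 36.7 and 48.1 M reads, and in SW1990 the recovered reads and the deposited count were equal in 3764 of 3764 rows. One emptied line each in the HPDE and PANC-1 tables, and 75 SW1990 rows without a usable symbol, were not used.

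Reads were summed per host, and log2 folds were taken between RPM sums, for hosts with at least 10 reads over both libraries, at a threshold of 2-fold and with 0 reads set to 3. As an alternative, reads were tested by a two-sided exact binomial test conditional on their sum, adjusted by Benjamini-Hochberg over all hosts compared (SciPy 1.17.1). Intervals are Poisson for levels, Clopper-Pearson for shares and conditional binomial for ratios. TMM factors came from edgeR 4.0.16 in R 4.3.3, and other steps ran in Python 3.11.15 with pandas 2.3.3 and NumPy 2.4.6. Junction spans were matched to exon pairs of GENCODE release 29, whose coordinates are of another build and are not printed. Proteins were translated from its coding sequences with Biopython 1.88. A finger was C, 2 to 4 residues, C, 12 residues, H, 3 to 5 residues, H. The KRAB-like pattern was loosened after seeing which proteins a stricter form missed. Exon numbers are those of the matched transcript.

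The members and gene lists were chosen with earlier results of these data known. Named hosts are in the top 8 by level of any line or by size of fold of any comparison, are KLF, ZBTB or SCAN members with at least 10 reads in a line, or have an identical junction in all lines. From the other lists, the 3 largest folds per comparison are named, apart from 1 gene that is not reported here. Hosts named beyond this rule were chosen after their values were seen.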

Additional observations from a re-analysis of the deposited data

Results flagged for a closer look

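ZNF652 was called in opposite directions against HPDE in the PDAC lines: its log2 fold was 1.84 in PANC-1 and -1.46 in SW1990, from 60 PANC-1 reads, 8 SW1990 reads and 19 HPDE reads. With 1 library per line the difference between these folds was not tested. On identical junctions alone the SW1990 value was 0.21, and it was 0.21 without the leading junction of exons 3 to 5. Scaled by reads outside the RNase P, ribosomal RNA and mitochondrial loci, it was -0.85 and no longer a call. At a 3-fold threshold the SW1990 call was lost as well.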

How the results depend on the processing

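No paired analysis was possible because each cell line has 1 library. Of the alternative values of the counts and medians, 101 stayed within 1.5 times the count or within the interval of the median, and 28 moved; of those of single hosts, 886 kept their call or lack of one, 28 of them uncalled values that changed sign, 19 gained a call, 25 lost one, and 17 changed direction with a call in either setting. In PANC-1 against HPDE, a minimum of 20 reads gave 11 higher and 1 lower of 15 compared, identical junctions 10 higher of 15, leaving out each host's leading junction 3 higher and 0 lower of 4, and adding 1 read to both libraries a median of 3.45. In SW1990 against HPDE, the median was 1.92 on total back-splice reads, 2.17 on reads outside the RNase P, ribosomal RNA and mitochondrial loci, with 0 lower, and 3.25 with 1 read added. There, 20 reads gave 5 higher of 11, a 3-fold threshold 0 lower, leaving out junctions under 500 bases 10 higher of 20, and leaving out leading junctions 6 higher and 0 lower of 10. In SW1990 against PANC-1, total back-splice reads gave 13 higher and 10 lower, reads outside those loci 14 and 9 with a median of 0.49, 20 reads 4 higher of 21, a 3-fold threshold 5 higher, identical junctions 14 and 10 of 30 with a median of 0.40, and no leading junctions 4 and 3 of 10 with a median of 0.27. Changes of direction that involve a call were, on identical junctions, ZNFX1 in PANC-1 against HPDE (-1.26), ZBTB8OS (1.53) and ZNF652 (0.21) in SW1990 against HPDE, and ZBTB46 (0.61), ZBTB8OS (1.34), ZNF514 (1.93) and ZNF839 (1.72) in SW1990 against PANC-1. Without leading junctions they were ZBTB8OS (1.53), ZNF276 (-0.69) and ZNF652 (0.21) in SW1990 against HPDE, and ZBTB46 (0.61), ZNF276 (-0.88), ZNF514 (1.93), ZNF839 (1.72) and ZNFX1 (-2.51) in SW1990 against PANC-1. Identical junctions keep every SW1990 junction; there and without leading junctions ZBTB8OS and ZNF839, and in the latter ZNFX1, are left with 0 reads in 1 line, so these directions follow from the construction. On reads outside those loci they were ZBTB8OS (1.30) and ZNF841 (0.07) in SW1990 against PANC-1. The smaller sets compared follow from the stricter read and junction rules; other causes were not tested. Most hosts had under 20 reads in HPDE and SW1990, which limits how small a fold can be told from counting error.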
